A study of Mus musculus with 12 samples.

Results

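The laminin chains are the 9 genes Lama1, Lama2, Lama3, Lama4, Lama5, Lamb1, Lamb2, Lamb3 and Lamc1, taken by name from a table of 17637 genes, in which all 9 were present. They were compared between tissue layers that were stripped off wild-type CD1 mouse hearts at embryonic stage E16.5. Artery libraries were made from the mesothelium and submesothelium that cover the great arteries at their base, ventricle libraries from the epicardium with the subepicardium beneath it. There were 6 libraries of polyA RNA per group, each from tissue pooled over the embryos of 1 litter, and each of the 6 litters is represented once in either group. Both groups carried the same wild-type genotype, and no treatment is named in the labels. In pooled layers, fewer cells of a type and less RNA per cell cannot be told apart.

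Laminins are large proteins of basement membranes, and many of them, though not all, are cross-shaped and polymerise into a sheet. Each laminin is a trimer of 1 alpha, 1 beta and 1 gamma chain. The alpha chain carries the globular end that binds cell receptors, while the beta and gamma chains complete the coiled rod and set which trimers can form. In the heart, laminin lies under the mesothelium, around every muscle cell and vessel, and around nerves.

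RefSeq promoter windows of build GRCm38.p6, each of the 250 bases before a RefSeq start, were found for 5 of the 9 chains. That start is not always the GENCODE start of the gene. The windows of Lamb3 (1:193301744-193301993) and Lama2 (10:27616943-27617192) lay inside the gene spans given below. Those of Lamb1 and Lamb2 ran past the GENCODE starts. The beta class is the class in which every chain had a window. Its sequences are shown because its chain Lamb3 was called lower in artery while Lamb1 and Lamb2 were not past the test. A link between the windows and these calls was not tested. Each is printed on the plus strand up to the first base of an annotated exon, with CpG dinucleotides in capitals: 191 bases for Lamb1 at chr12:31265043-31265233, 124 bases for Lamb2 at chr9:108479612-108479735 and 249 bases for Lamb3 at chr1:193301744-193301992.
Lamb1: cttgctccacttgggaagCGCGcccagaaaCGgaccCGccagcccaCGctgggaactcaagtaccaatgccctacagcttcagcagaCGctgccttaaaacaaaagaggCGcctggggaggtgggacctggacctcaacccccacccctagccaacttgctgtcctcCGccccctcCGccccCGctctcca
Lamb2: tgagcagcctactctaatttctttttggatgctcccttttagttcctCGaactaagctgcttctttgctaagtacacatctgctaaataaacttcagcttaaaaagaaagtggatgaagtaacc
Lamb3: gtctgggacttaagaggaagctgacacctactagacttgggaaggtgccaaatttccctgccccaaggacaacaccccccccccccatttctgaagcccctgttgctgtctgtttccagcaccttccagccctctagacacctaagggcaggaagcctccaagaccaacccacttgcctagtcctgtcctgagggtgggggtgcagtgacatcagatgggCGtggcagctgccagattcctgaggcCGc
Over the full windows Lamb1 held 14 CpG dinucleotides, Lamb2 held 3 and Lamb3 held 2, against a median of 6 over 27025 promoter windows. Lama5 had the highest number of the 5 chains, with 19, and Lama2 the lowest, with 0. The GC box (GGGCGG, on either strand) occurred in Lama5 and in Lamb1, at 4 and 2 places, and is present in 32.9% of the windows. A CCAAT box (CCAAT, either strand) occurred once in Lamb1, in 34.5% of the windows. Neither the TATA box TATAAA (13.0% of the windows) nor the AP-1 element TGACTCA (4.4% of the windows) was among the letters of any of the 5 windows.

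The chains are encoded by genes of very different layout in the GENCODE M21 annotation of GRCm38. Lama2 spans 639.7 kb of chromosome 10 on the minus strand (10:26980036-27619758), while Lamb2 spans 10.8 kb of chromosome 9 on the plus strand (9:108479736-108490530). Lama3 lies at 18:12333819-12583013, Lamb3 at 1:193207699-193343878 and Lama1 at 17:67697259-67822647, all on the plus strand. Lama4 is on the plus strand of chromosome 10 (10:38965515-39110188) and Lama5 on the minus strand of chromosome 2 (2:180176373-180225859). Lamb1 is at 12:31265234-31329644 on the plus strand and Lamc1 at 1:153218922-153332786 on the minus strand.

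The values are a normalized signal on the CPM scale (reads of a gene relative to those of the whole library), in which 1 library's values sum to 982252 to 1067983. Read totals recovered from them were 6.77 to 22.11 M per library, lowest in artery libraries 1 (6.77 M) and 6 (7.97 M). The first principal component (47.28% of the variance) separated the groups, artery library 4 lying closest to ventricle, while on the second (23.79%) artery library 1 stood alone. Markers of the mesothelium, the labelled tissue of both groups, were present in both. Their summed value, over 10 markers such as Upk3b and Msln, was 1548 to 3218 in artery and 2587 to 5107 in ventricle, and lower in artery in 6 of 6 litters. The 7 smooth muscle markers, which include Myh11 and Tagln, summed to 1800 to 3684 in artery and 498.8 to 801 in ventricle. The 8 heart muscle markers summed to 3229 to 12020 in artery and 10120 to 26500 in ventricle, and the 7 endothelial markers to 604 to 1109 in artery and 923 to 1159 in ventricle. The 6 pericyte markers summed to 919.6 to 2084 in artery and 372 to 559.5 in ventricle, but did not all move together. Rgs5, Cspg4, Pdgfrb and Notch3 were higher in artery in 6 of 6 litters, Kcnj8 in 3 of 6 and Abcc9 in 2 of 6. Rgs5 had the largest mean, 544 in artery and 103 in ventricle.

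Of the 9 chains, Lama3 and Lamb3 fell in the artery layers, Lama1 rose and 6 did not pass the test. The test was limma on log2(value + 1) over 14779 genes with Benjamini-Hochberg adjustment and a threshold of 0.05. The 3 called chains are 33.3% of the 9, against 24.1% of all tested genes called (12.2% higher and 11.8% lower). The median log2 difference was -0.16 over the 9 chains and -0.04 over all tested genes. No chain had groups that were free of overlap (0 of 9), whereas 11.9% of all tested genes did (7.61% higher and 4.25% lower). With the litter as a block, Lama2 and Lama4 were called as well, 55.6% of the chains, against 24.5% of all tested genes (11.9% higher and 12.6% lower). Lama1, Lama2 and Lama3 went the same way in all 6 litters, 33.3% of the chains, as did 27.1% of all tested genes.

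**Figure D1:**
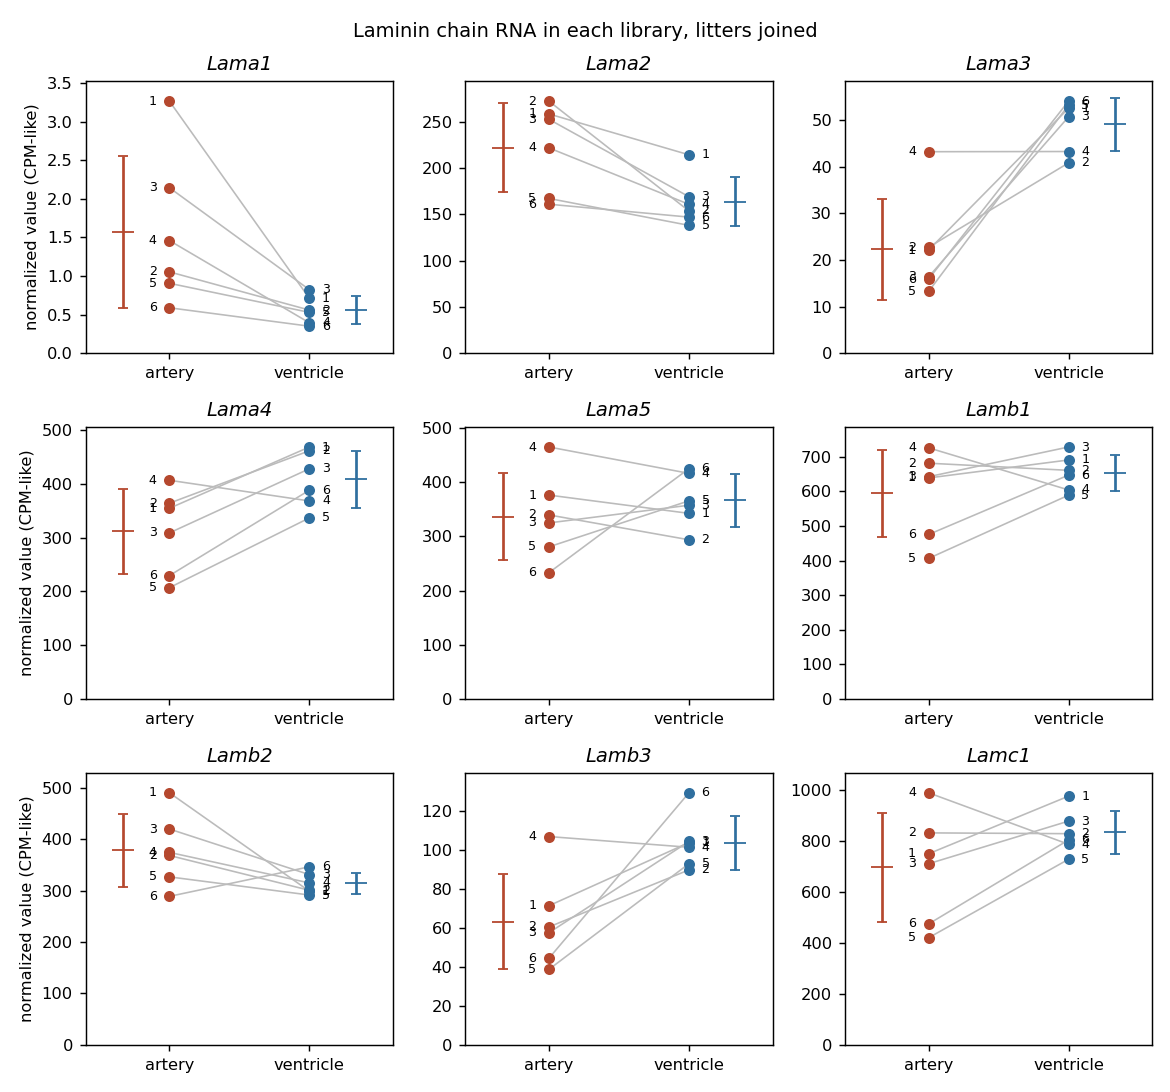
Normalized value (vertical axes, CPM-like scale from 0) of the 9 laminin chains in every library, with artery left and ventricle right in each panel; lines join the 2 libraries of 1 litter, numbers give the litter, and bars beside the points show mean ± SD of 6 libraries. Lama3 is lower in artery in 6 of 6 litters although litter 4 is almost level, and artery libraries 5 and 6 are the 2 lowest artery libraries in all 9 panels.

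Among the alpha chains, Lama3 fell in artery. Lama3 is known from epithelia, where it joins Lamb3 in the laminin that anchors the basal cell surface. Its value was 22.1, 22.7, 16.4, 43.2, 13.2 and 15.9 in artery libraries 1 to 6, against 52.5, 40.8, 50.6, 43.2, 53.2 and 54.0 in ventricle libraries 1 to 6. The artery libraries of litters 1, 2, 3, 5 and 6 all lay below every ventricle library, and artery library 4 alone reached into the ventricle range. The means were 22.3 ± 10.9 in artery and 49.1 ± 5.62 in ventricle (n = 6 each, SD), and the artery mean was 45.4% of the ventricle mean. On the log2 scale artery was lower, with a difference of -1.20 ± 0.22 (SE), with adjusted p = 0.00131 by limma. In litter 4 the difference was -0.0014, and in the other litters it ran from -1.93 to -0.82. Without artery library 4 the log2 difference was -1.41.

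Lama1, an alpha chain of early embryonic basement membranes, was close to the lower limit of the measurement. Its value was 3.26, 1.05, 2.14, 1.46, 0.906 and 0.589 in artery libraries 1 to 6, against 0.711, 0.560, 0.823, 0.395, 0.530 and 0.351 in ventricle libraries 1 to 6. These values rest on 4 to 34 reads per library. Artery was higher in 6 of 6 litters, and the groups overlapped through artery library 6. Its log2 difference was 0.64 ± 0.22 (SE, limma adjusted p = 0.0477), on a scale that understates the change of a gene at this level. The ratio of the means was 2.79. When single litters or libraries were left out, 15 of 18 such omissions ended the call, with log2 differences of 0.48 to 0.77.

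Lama2, the alpha chain that surrounds muscle fibres and nerves and binds dystroglycan, did not pass the test across the 12 libraries and passed once litters were paired. It was at 258, 272, 252, 221, 167 and 161 in artery libraries 1 to 6, against 214, 153, 169, 161, 138 and 147 in ventricle libraries 1 to 6. Artery was higher in 6 of 6 litters, but artery libraries 5 and 6 lay within the ventricle range. The log2 difference was 0.42 ± 0.15 (SE), with adjusted p = 0.0584 by limma. With the litter as a block the same difference had SE 0.11 and adjusted p = 0.0195 by limma.

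Lama4, the alpha chain of endothelial and perivascular basement membranes, had the opposite sign. Its values were 354, 364, 309, 406, 207 and 229 in artery libraries 1 to 6, against 468, 461, 428, 368, 336 and 388 in ventricle libraries 1 to 6. It was lower in artery in 5 of 6 litters, and litter 4 was the exception. The log2 difference was -0.42 ± 0.16 (SE, limma adjusted p = 0.0816). With the litter as a block adjusted p was 0.0375, and without artery library 4 the log2 difference was -0.51 with adjusted p = 0.0316 by limma. The summed endothelial markers were lower in artery in 5 of 6 litters as well, but the 7 markers did not move together. Kdr and Esam passed the test, both lower. The others did not pass: Cdh5 and Tek had log2 differences of -0.37 and -0.33, and Pecam1, Tie1 and Emcn of 0.14, 0.15 and 0.13. The median over the 7 markers was -0.33. Their part in the Lama4 values was not tested.

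Lama5, an alpha chain found widely in epithelial and vascular basement membranes, went different ways in different litters. It was at 376, 340, 325, 465, 281 and 233 in artery libraries 1 to 6, against 343, 294, 358, 416, 366 and 425 in ventricle libraries 1 to 6. Artery was higher in litters 1, 2 and 4 and lower in litters 3, 5 and 6. This gave a log2 difference of -0.15 ± 0.15 (SE, limma adjusted p = 0.527).

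**Figure D2:**
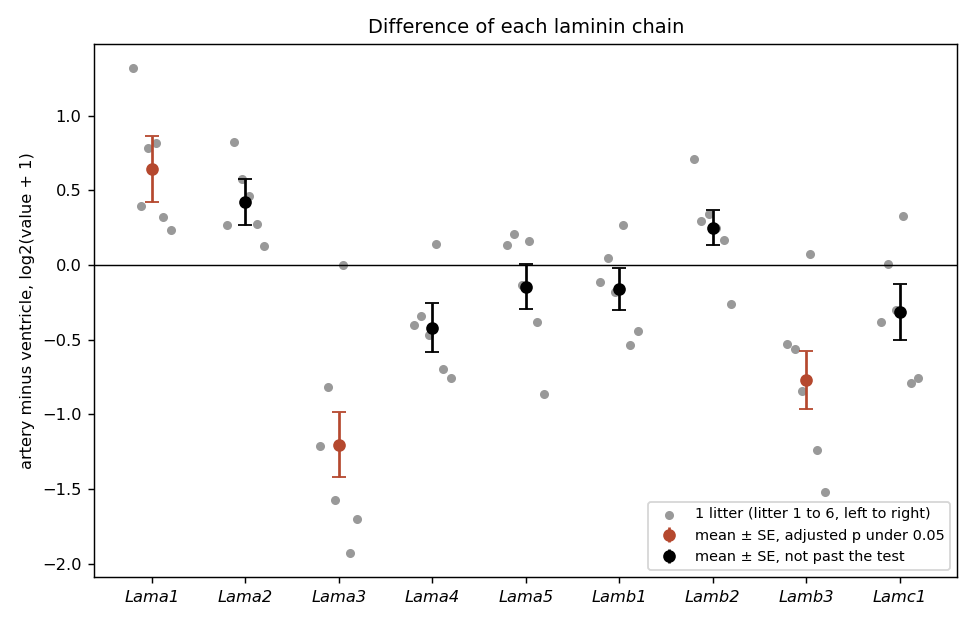
Log2 difference, artery minus ventricle (vertical axis, log2(value + 1)), of each laminin chain. Large points show the difference of the group means, red where adjusted p was under 0.05 by limma. Their bars are the SE of the limma fit without the litter, not the SE of the litter differences. Grey points show single litters. Lama3 (-1.20) and Lamb3 (-0.77) lie below 0 and Lama1 (0.64) above it, with the litter 4 points of Lama3 and Lamb3 near 0.

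Among the beta chains, Lamb3 fell in artery. Lamb3 is the short beta chain that pairs with Lama3. It was at 71.6, 60.7, 57.7, 107, 38.9 and 44.6 in artery libraries 1 to 6, against 104, 90.0, 105, 102, 93.1 and 130 in ventricle libraries 1 to 6. Again all artery libraries but number 4 lay below every ventricle library. Its log2 difference was -0.77 ± 0.20 (SE, limma adjusted p = 0.0117), lower in artery in 5 of 6 litters. Without artery library 4 it was -0.94. The call was lost without litter 3 (limma adjusted p = 0.0526) and without litter 6 (limma adjusted p = 0.0558).

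Markers of several cell types were lower in artery alongside both chains. All 10 mesothelial markers passed the test, each lower in artery, with a median log2 difference of -1.08. Their sum was 3218 in artery library 4, against 1548 to 2105 in the other 5 artery libraries, and it was lowest in libraries 2 and 3. Lama3 was lowest in library 5 (13.2), with libraries 6 (15.9) and 3 (16.4) close to each other. Lamb3 was lowest in libraries 5 and 6. All 4 Schwann cell markers passed and were lower too, with a median log2 difference of -0.99 and their highest artery sum in library 4 (22.9). The endothelial and macrophage sums were also highest in artery library 4, at 1109 and 362. The heart muscle markers, of which 6 of 8 passed and were lower, had their highest artery sum in library 1. The part of these cell types in the values of Lama3 and Lamb3 was not tested.

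Lamb2, a beta chain of arterial walls, kidney filters and nerve endings on muscle, was at 490.3, 368, 420, 374, 327 and 289 in artery libraries 1 to 6, against 299, 301, 331, 315, 292 and 346 in ventricle libraries 1 to 6. Artery was higher in 5 of 6 litters, and litter 6 went the other way. This gave a log2 difference of 0.25 ± 0.12 (SE, limma adjusted p = 0.151). Single omissions moved it between 0.16 without litter 1 (limma adjusted p = 0.324) and 0.35 without litter 6, and only the omission of artery library 6 gave a call (0.32, limma adjusted p = 0.0423). Without artery library 1 it was 0.17 (limma adjusted p = 0.226). Lamb1, the beta chain shared by most laminins, was at 639, 682, 643, 726, 406 and 476 in artery libraries 1 to 6, against 691, 661, 728, 604, 589 and 647 in ventricle libraries 1 to 6. Only artery libraries 5 and 6 fell outside the ventricle range, and the log2 difference was -0.16 ± 0.14 (SE, limma adjusted p = 0.447).

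Lamc1, the gamma chain present in most laminin trimers, was at 749, 831, 710, 987, 420 and 474 in artery libraries 1 to 6, against 974, 827, 876, 786, 727 and 803 in ventricle libraries 1 to 6. The artery values bracketed those of ventricle on both sides, with library 4 above all ventricle libraries, library 3 just below them and libraries 5 and 6 far below. The log2 difference was -0.32 ± 0.19 (SE, limma adjusted p = 0.252). The gamma chain Lamc3 was not past the test either. It was at 11.7 ± 2.27 in artery and 10.3 ± 4.75 in ventricle (n = 6 each, SD, limma adjusted p = 0.489), lowest in ventricle library 2 at 3.97.

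The chains varied more among artery than among ventricle libraries. The coefficient of variation was larger in artery for 9 of 9 chains, as it was for 86.4% of all tested genes, for example 21.1% in artery and 7.999% in ventricle for Lamb1, and 30.97% in artery and 10.2% in ventricle for Lamc1. Artery libraries 5 and 6 were the 2 lowest of the artery group for 9 of 9 chains, a pattern that 11.4% of all tested genes showed, and artery library 4 was the highest for 6 of 9, as for 21.3% of all tested genes. Library 5 held 16.79 M reads and library 6 held 7.97 M. Fibroblast markers, 6 genes such as Col1a1 and Dcn, summed to 40850 and 38110 in artery libraries 5 and 6, against 46020 to 63400 in the other 4 artery libraries. The same libraries were the lowest of the artery group for the endothelial sum (604 and 888, against 906 to 1109) and for the macrophage sum (267 and 264, against 287 to 362). The other marker sums were lowest elsewhere in the artery group. Pericyte and Schwann cell sums were lowest in library 1 and the mesothelial sum in library 2. Heart and skeletal muscle sums were lowest in library 3, and the smooth muscle sum in library 4 (1800, against 3024 in library 6). The part of these cell types in the low laminin values was not tested. Without artery libraries 5 and 6, an omission chosen after seeing the data, Lama2 (0.62, limma adjusted p = 0.00427) and Lamb2 (0.39, limma adjusted p = 0.0174) were higher in artery, Lama1, Lama3 and Lamb3 kept their calls, and Lama4 stood at -0.18.

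To set the chains beside each other, values were divided by the length of the longest protein-coding transcript, which ran from 4867 bases for Lamb3 to 11388 bases for Lama5. On this per-kilobase scale Lamb1 and Lamc1 were the most abundant chains of both layers. In artery the levels per kilobase, in descending order, were those of Lamb1 (103 ± 21.7), Lamc1 (91.2 ± 28.2), Lamb2 (67.2 ± 12.6), Lama4 (51.5 ± 13.1), Lama5 (29.6 ± 7.02), Lama2 (23.1 ± 4.99), Lamb3 (13.0 ± 5.01), Lama3 (2.11 ± 1.03) and Lama1 (0.165 ± 0.104; n = 6, SD). In that order every neighbouring pair down to Lama2 and Lamb3 had overlapping ranges, and Lama3 and Lama1 each lay below all values of the chain before it. In ventricle the order was Lamb1 (113 ± 9.04), Lamc1 (109 ± 11.2), Lama4 (67.5 ± 8.74), Lamb2 (55.8 ± 3.77), Lama5 (32.2 ± 4.27), Lamb3 (21.3 ± 2.87), Lama2 (17.03 ± 2.80), Lama3 (4.65 ± 0.533) and Lama1 (0.059 ± 0.019; n = 6, SD). There the ranges of Lamb1 and Lamc1, of Lama4 and Lamb2, of Lama5 and Lamb3, and of Lamb3 and Lama2 overlapped. The place of Lamb1 before Lamc1 depends on the length used: per kilobase of coding sequence, Lamc1 came first with 144 ± 44.6 in artery and 173 ± 17.7 in ventricle, and Lamb1 had 108 ± 22.8 in artery and 119 ± 9.50 in ventricle (n = 6 each, SD). The order of the other 7 means was the same by coding length.

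The order of 2 pairs of chains differed between the layers. Per kilobase, Lama2 was above Lamb3 in 6 of 6 artery libraries and in 1 of 6 ventricle libraries. Lamb2 was above Lama4 in 5 of 6 artery libraries and in 0 of 6 ventricle libraries. Lama4 was above Lama5 and Lama5 above Lama2 in all 12 libraries. The counts for Lama2 and Lamb3 depend on the length used. Per kilobase of coding sequence, the highest Lamb3 value in artery (30.6) was above every Lama2 value there (highest 29.1). In ventricle every Lamb3 value (lowest 25.7) was then above every Lama2 value (highest 22.9).

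As a share of all alpha-chain RNA per kilobase, Lama4 was the main alpha chain in both layers, but with a smaller part in artery. Its share was 48.5, 49.9, 47.4, 49.7, 44.1 and 49.4% in artery libraries 1 to 6, against 57.4, 62.5, 56.8, 51.5, 51.9 and 52.6% in ventricle libraries 1 to 6, and the groups did not overlap. The share of Lama2 was 22.2, 23.5, 24.4, 17.02, 22.4 and 21.8% in artery libraries 1 to 6, against 16.51, 13.1, 14.1, 14.1, 13.4 and 12.5% in ventricle libraries 1 to 6. Here too the groups were apart, with artery library 4 closest to the ventricle values. Lama3 took 1.93 ± 0.565% in artery and 3.85 ± 0.544% in ventricle, without overlap, while Lama5 took 27.9 ± 2.60% in artery and 26.7 ± 4.38% in ventricle (n = 6 each, SD). Lama1 took 0.1501 ± 0.0795% in artery and 0.048 ± 0.014% in ventricle (n = 6 each, SD). The ratio of Lama2 to Lama4 per kilobase was 0.343 to 0.514 in artery and 0.209 to 0.287 in ventricle, higher in artery in 6 of 6 litters.

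Within the beta class, Lamb2 took 31.1 to 42.6% in artery and 27.4 to 30.9% in ventricle, so that every artery library lay above every ventricle library. The means were 36.97 ± 4.40% in artery and 29.4 ± 1.39% in ventricle (n = 6 each, SD). Lamb3 took 6.97 ± 1.66% in artery and 11.2 ± 1.17% in ventricle (n = 6 each, SD), lower in artery in 6 of 6 litters, and artery library 4 (10.3%) overlapped with ventricle library 2 (9.93%). Lamb1 kept the largest part, at 56.1 ± 3.54% in artery and 59.4 ± 2.32% in ventricle (n = 6 each, SD). The shares are descriptions of RNA per kilobase, with no test, and they say nothing of the proteins. In either class the shares are tied to each other, since a fall of 1 chain raises the shares of the others. The values of Lama2, Lama4 and Lamb2 themselves overlapped between the groups. Summed per kilobase, the alpha chains reached 107 ± 24.3 in artery and 121 ± 8.97 in ventricle, and the beta chains 183 ± 34.6 in artery and 190.1 ± 12.4 in ventricle (n = 6 each, SD), with overlapping groups in both classes.

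**Figure D3:**
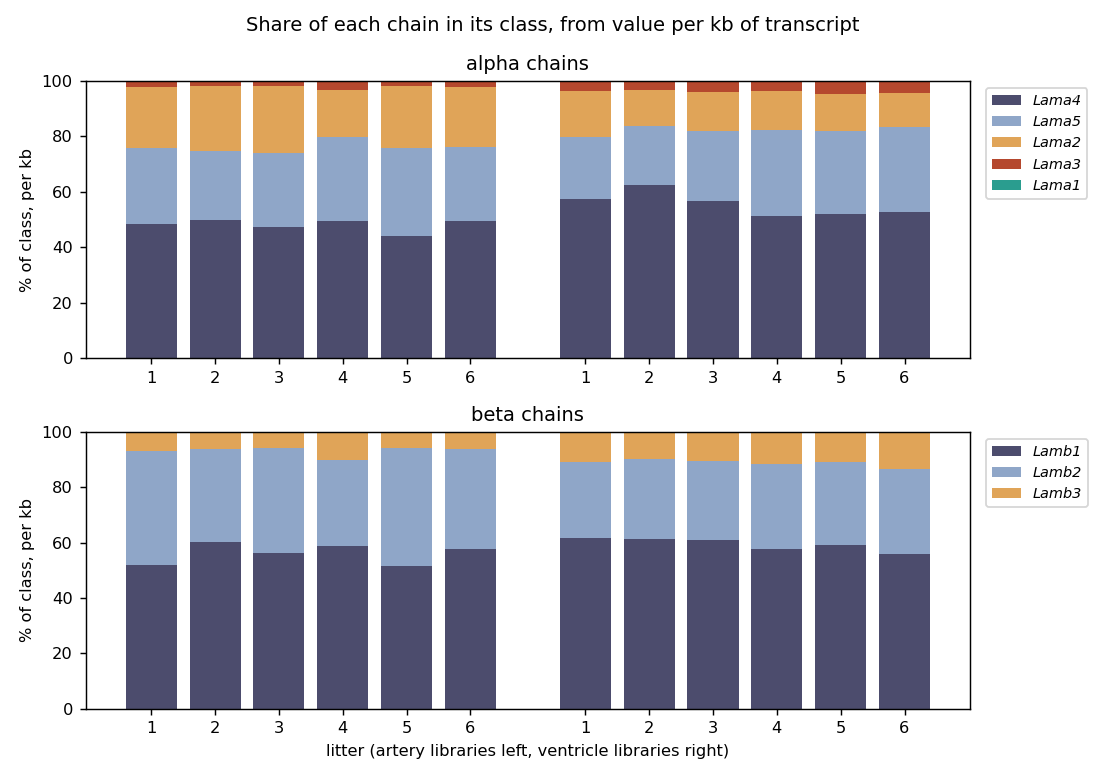
Share of each chain in its class (vertical axes, percent of the class total, from value per kb of the longest coding transcript) in every library, artery libraries of litters 1 to 6 left and ventricle libraries right. Lama2 takes 17.02 to 24.4% of the alpha class in artery and 12.5 to 16.51% in ventricle, and Lamb2 takes 31.1 to 42.6% of the beta class in artery and 27.4 to 30.9% in ventricle; Lama1 is too scarce to be visible.

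For each called chain, the 3 genes with the highest Pearson r of log2(value + 1) over the 12 libraries were named, from about 11368 candidates. This is a description, since such an r mixes the group difference with differences between libraries, such as depth. Lama3 was most like Synm, an intermediate filament gene (0.987), the laminin-binding integrin subunit Itga7 (0.984) and the growth factor Bmp5 (0.982). Synm was at 21.8 ± 18.6 in artery and 75.4 ± 12.4 in ventricle (n = 6 each, SD). Lamb3 was most like the collagen receptor Ddr1 (0.976), Arhgap1 (0.962) and the oxytocin receptor Oxtr (0.961). Lama1 was most like Plod1, a collagen lysine hydroxylase (0.978), Ift172 (0.971) and Adamtsl2 (0.960). Of these, Ift172 and Adamtsl2 did not pass the test (limma adjusted p = 0.0714 for both). The Lama1 values rest on 4 to 34 reads, with the highest (3.26) in artery library 1, which stood alone on the second principal component.

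Among laminin receptors, 3 of 9 fell in artery, 2 rose and 4 did not pass the test (55.6% called, against 24.1% of all tested genes, 12.2% higher and 11.8% lower), with a median log2 difference of -0.39. The list was chosen with earlier results of these data known, so its share is a description and not a test of enrichment. Itga7, the integrin subunit of muscle that binds laminin, was at 33.3 ± 23.8 in artery and 102 ± 18.6 in ventricle (n = 6 each, SD), a log2 difference of -1.78 ± 0.30 (SE, limma adjusted p = 7e-04). The Lama5 receptor Bcam was at 418 ± 140 in artery and 790 ± 97.7 in ventricle (n = 6 each, SD; -0.97 ± 0.18, SE, limma adjusted p = 0.00146). Itga3, whose integrin binds Lama3 and Lama5, also fell (-0.66 ± 0.18, SE, limma adjusted p = 0.0182). Itgb4, the hemidesmosome integrin subunit, was higher by 0.52 ± 0.17 and Mcam by 0.43 ± 0.14 (SE), calls that were lost in 14 and 13 of 18 omissions. The common beta subunit Itgb1 (0.26 ± 0.09) and dystroglycan, Dag1 (-0.53 ± 0.19), were not past the test (SE, adjusted p = 0.063 for both, limma). With the litter as a block, 5 receptors were lower, since Dag1 (adjusted p = 0.047, limma) and the integrin subunit Itga6 (adjusted p = 0.0337, limma) were then called as well. Single omissions gave 0 to 3 higher and 2 to 6 lower, with 6 lower without artery library 1 and 5 without artery library 4 or litter 4. Heart muscle marker sums, given above, were lower in artery in 6 of 6 litters, and their part in the Itga7 values was not tested.

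Of 20 genes of the basement membrane around laminin, 6 rose in artery, 2 fell and 12 did not pass the test (40.0% called, against 24.1% of all tested genes), with a median log2 difference of 0.10. This share too is a description, from a list chosen with earlier results known. Col4a6, a type IV collagen chain of smooth muscle basement membranes, was at 70.6 ± 14.6 in artery and 43.4 ± 2.89 in ventricle (n = 6 each, SD), a log2 difference of 0.67 ± 0.12 (SE, limma adjusted p = 0.00113). Ntn4, a laminin-like protein that binds the gamma1 chain and disrupts laminin sheets, was at 38.6 ± 14.1 in artery and 18.9 ± 3.99 in ventricle (n = 6 each, SD; 0.94 ± 0.22, SE, limma adjusted p = 0.00777). The nidogens bridge Lamc1 to type IV collagen, and Nid2 was higher by 0.41 ± 0.11 (SE, limma adjusted p = 0.0154). The lower genes were Npnt, an integrin ligand of epithelial basement membranes (-0.83 ± 0.16, SE), and Frem1, of the Fras1 complex (-0.67 ± 0.17, SE). The abundant collagen chains Col4a1 (0.15 ± 0.17) and Col4a2 (-0.03 ± 0.19) did not pass (SE). Leaving out 1 litter or library gave 2 to 6 higher and 1 to 5 lower, with 2 higher without litter 2 or litter 3 and 5 lower without artery library 4. With the litter as a block 5 were higher: Nid1 and Sparc lost their calls (limma adjusted p = 0.0552 and 0.0535) and Hspg2, the proteoglycan perlecan, gained one (limma adjusted p = 0.0411).

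Of the enzymes that build the laminin-binding sugar chain of dystroglycan, 8 were measured, of which 2 rose and 6 did not pass (25.0% called, near the 24.1% of all tested genes), with a median log2 difference of 0.18. Pomgnt2 was higher in artery by 0.57 ± 0.11 (SE, limma adjusted p = 0.00199), and Pomt1, which starts the chain, by 0.36 ± 0.11 (SE, limma adjusted p = 0.0278). Single omissions gave 1 to 4 higher, with 4 without artery library 4. The call of Pomt1 was lost in 11 of 18 omissions, and with the litter as a block its adjusted p was 0.0525 by limma. Of 12 genes that link laminin receptors to the cytoskeleton, 2 rose, 1 fell and 9 did not pass (25.0% called, again near the 24.1% of all tested genes), with a median log2 difference of 0.04. Kank2 was higher in artery by 0.51 ± 0.09 (SE, limma adjusted p = 0.00125) and the kinase-like adaptor Ilk by 0.40 ± 0.10 (SE, limma adjusted p = 0.00914). Its binding partner Lims1 was lower by -0.46 ± 0.14 (SE, limma adjusted p = 0.0284), a call lost in 8 of 18 omissions. With the litter as a block, Tln2 was called lower as well.

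**Figure D4:**
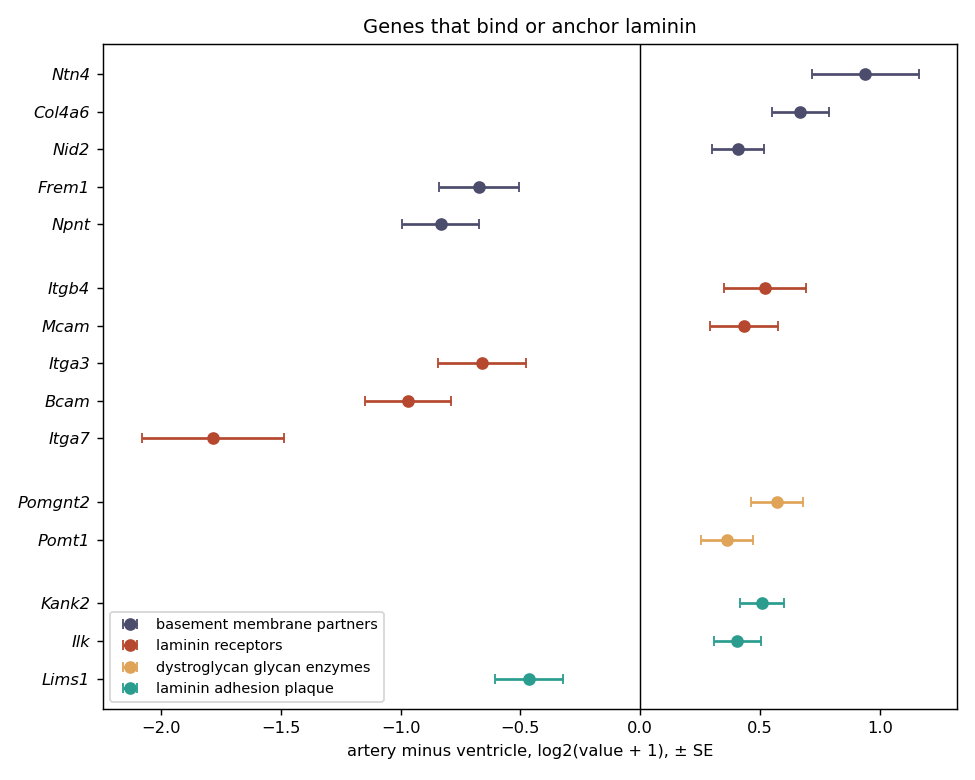
Log2 difference, artery minus ventricle (horizontal axis, log2(value + 1), bars ± SE), of the named genes that bind or anchor laminin, coloured by list, all with adjusted p under 0.05 by limma. Itga7 (-1.78), Bcam (-0.97) and Npnt (-0.83) are the lowest and Ntn4 (0.94) the highest.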

How the data were processed

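RNA of peeled heart layers was sequenced as single 50-base reads from NEBNext Ultra libraries, per the labels' protocols, and handled with RSEM 1.2.3, cutadapt 1.3 and CASAVA 1.8.2 against GRCm38, tools and build that the submitters' processing notes list without their order. The table deposited by the authors held a normalized signal, by a tool that is not given in the sources used here: each value equalled a whole number of reads plus 0.5, on a CPM scale with an adjusted library size (100% of 211644 values within 0.02 reads), and column sums ran from 982252 to 1067983.

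The 14779 genes whose mean value reached 1 (2858 did not) were fitted with limma 3.58.1 in R 4.3.3 on log2(value + 1), where 1 is the pseudocount, with a trended and robust prior and no block. All 9 chains passed that minimum. Benjamini-Hochberg adjustment of p-values ran over all 14779 genes, with a threshold of 0.05. The procedure was tested on simulated data. The recovered reads were also fitted with edgeR 4.0.16, DESeq2 1.42.0 and limma-voom, which called 3430 genes in edgeR, 4170 in DESeq2 and 3675 in limma-voom, against 3556 in limma. The kit is not stated to mark strand, so reads of an antisense gene could be counted for its partner.

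The litter number pairs the libraries, because the labels give each litter its own artery and ventricle pool. The mean correlation of deviations from group means was 0.215 for libraries of 1 litter and -0.0431 for libraries of different litters. Within litters it ran from -0.0137 to 0.396, and 3 of 6 artery libraries correlated best with the ventricle library of their own litter. P-values measure the spread between pools of litters. Lanes come from the descriptions of the libraries, which name no flow cell.

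The chains and gene lists were chosen with earlier results of these data known. Their shares of calls beside those of all tested genes are therefore descriptions, not tests of enrichment. The naming rule took all 9 chains, up to 3 genes per direction of each companion list with the smallest p, and the 3 genes most like each called chain; genes outside that rule (Itgb1, Dag1, Col4a1, Col4a2, Itga6, Nid1, Sparc, Hspg2, Tln2, Kdr, Esam, Pecam1, Tie1, Emcn and the other named markers) were added for context after their values were seen. Some listed genes are not reported here and were left out of the lists' counts and sums whatever their values.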

Additional observations from a re-analysis of the deposited data

How the results depend on the processing

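The differences and counts of calls were recomputed under 33 alternatives (32 for Lama1), 18 of which left out 1 litter or 1 library; class shares were recomputed with coding length and without each litter, and ratios, overlaps and likeness were not recomputed. Lama3 kept its call in 31 of 33 (log2 differences -1.49 to -0.97) and Lamb3 in 29 of 33 (-1.04 to -0.51); Lama1 kept its call in 13 of 32. The count of chains higher in artery (1) was 0 with a minimum mean of 5, with values rescaled by TMM factors, without artery libraries 1 and 4, and within lane 1 or lane 2; 2 with the litter as a replicate block (Lama1 and Lama2), edgeR, DESeq2 or limma-voom; and 3 with lane as a covariate or without artery libraries 5 and 6. Omissions of 1 litter or library gave 0 to 3. The count of chains lower (2) was 4 without artery libraries 1 and 4 and 0 within lane 1 or lane 2, and 1 to 3 under single omissions. At an unadjusted p under 0.05 in limma, lane 1 held 3 chains higher and 2 lower, lane 2 held 1 and 1, and the higher count was 1 with a minimum mean of 5 (Lama1 is then not tested), 2 with TMM factors and 1 without artery libraries 1 and 4. The cause was not tested, except that single lanes hold fewer libraries (2 artery and 2 ventricle in lane 1, 3 artery and 4 ventricle in lane 2). Artery library 6 alone is in lane 4, so lane as a covariate takes it out of the contrast. Within lane 1 Lama3 stood at -1.41 and Lamb3 at -0.85, and within lane 2 at -0.97 and -0.61. The count of all genes called (3556) was 1362 in lane 2 and 320 in lane 1, and 2069 to 4291 under single omissions, lowest without litter 3. The replicate block changed the calls of Lama2 and Lama4 among the chains.

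Directions reversed for chains near 0. Without artery libraries 5 and 6, Lama5 stood at 0.0338 and Lamb1 at 0.0427, and in lane 2 Lama5 stood at 0.0088. The 15 companion genes named by the rule kept their direction in all alternatives; Itgb1, Dag1, Col4a1 and Col4a2 were not recomputed beyond the block. With coding length in place of transcript length, Lamb3 took 9.03% of the beta class in artery and 14.3% in ventricle, and the other recomputed shares moved by less than 1 SD. Lama1 is limited by depth, with 4 to 34 reads.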

Other observations

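Other cell types of the peeled layers were measured alongside. The 4 Schwann cell markers, which include Sox10, summed to 6.96 to 22.9 in artery and 26.3 to 34.8 in ventricle, and all 4 were lower in artery by limma. The macrophage markers summed to 264 to 362 in artery and 274.5 to 392.5 in ventricle. The 5 skeletal muscle markers summed to 24.3 to 155 in artery and 14.7 to 45.4 in ventricle, highest in artery library 2. Acta1 made up most of this sum, with a mean of 72.9 in artery, and did not pass the test (limma adjusted p = 0.0644). Of the 3 markers tested, only Myh3 was called, higher in artery (limma adjusted p = 0.0259). Myod1 held 0 to 2 reads per library and Myog 0 to 16, and neither was tested. Over the 12 libraries, Lama4, Lamb1 and Lamc1 had pairwise Pearson r of 0.915 to 0.966 on the log2 scale. They are the chains of a common vascular laminin, but high r was not particular to them. Lama3 and Lamb3 had 0.9563 with each other. With Lama4, Lamb1 and Lamc1, Lamb3 had 0.8576, 0.7517 and 0.8363, and Lama3 had 0.809, 0.647 and 0.7589. Lama2 had 0.109 with Lama4 and 0.75 with Lamb2. All these r are descriptions over libraries that differ in group and depth, so they mix the group difference with differences between libraries.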
